A study of Mus musculus with 2 samples.

Results

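The genes described here are the type I interferon-stimulated genes of mouse pancreas cells, read in each cell class that marker genes could define. The members are a list of 40 genes given by symbol, and 38 of them had a row among the 31253 genes of the count matrices. Mx1 and Mx2 were not analysed here. Mouse pancreas cells were read with the BD Rhapsody system, which tags each captured transcript with a unique molecular identifier (UMI). There were 2 libraries. CP came from Cae-treated animals, and CP+EVs from animals given Cae and extracellular vesicles (EVs), so both groups carry the Cae treatment and no untreated library was analysed here. The condition label of both reads acute pancreatitis, while the series title speaks of a chronic form and names exercise as the origin of the vesicles. Strain, age, doses, times and how many animals a library pools are not stated in the labels. Since each group is a single library, no test was made, and every interval below is a 95% interval that covers counting error only. Differences are therefore between these libraries.

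Type I interferons are secreted proteins that bind the receptor pair IFNAR1 and IFNAR2. The kinases JAK1 and TYK2 then activate transcription factors, among them STAT2, which with IRF9 is part of the complex ISGF3, and ISGF3 binds the interferon-stimulated response element in the promoters of its target genes. The products of these genes sense or degrade viral RNA, block protein synthesis, modify proteins with ISG15 or amplify the pathway itself, as IRF7 does. In the pancreas the series title links this pathway to STING, the adaptor that signals when DNA is found in the cytosol.

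The promoters of 6 members are shown, 4 with a letter pattern that was more frequent among the members than among all genes and 2 without it. The 4 with a match to the core of the response element, GAAA, any 2 bases and GAAA (TTTC, any 2 bases and TTTC when read on the other strand), are Ifit1, Ifit3, Isg15 and Rsad2, which are described in most classes below. Irf7, also described there, and Sp100, the member with most UMIs, had no match (Sp100 has 2 windows in the table, of which the first is printed). Each line gives the 170 bases before the RefSeq gene start, 5′ to 3′ along the gene on build GRCm38.p6, in lower case with the matched letters in capitals.
Ifit1 (chr19:34640719-34640888, plus strand): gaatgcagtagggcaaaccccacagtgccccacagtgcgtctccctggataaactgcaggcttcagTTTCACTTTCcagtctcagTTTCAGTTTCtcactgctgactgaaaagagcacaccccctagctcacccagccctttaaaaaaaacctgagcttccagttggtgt
Ifit3 (chr19:34583359-34583528, plus strand): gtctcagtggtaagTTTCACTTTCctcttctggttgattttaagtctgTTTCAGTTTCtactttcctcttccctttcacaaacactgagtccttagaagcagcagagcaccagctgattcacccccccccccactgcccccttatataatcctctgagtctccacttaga
Isg15 (chr4:156200819-156200988, minus strand): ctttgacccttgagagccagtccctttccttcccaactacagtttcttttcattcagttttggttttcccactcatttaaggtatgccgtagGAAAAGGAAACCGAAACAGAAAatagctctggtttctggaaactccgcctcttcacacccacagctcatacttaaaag
Rsad2 (chr12:26456453-26456622, minus strand): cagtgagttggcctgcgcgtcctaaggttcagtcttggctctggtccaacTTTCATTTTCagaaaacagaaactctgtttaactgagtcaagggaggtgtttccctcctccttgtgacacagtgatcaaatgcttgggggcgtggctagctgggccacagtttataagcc
Irf7 (chr7:141266425-141266594, minus strand): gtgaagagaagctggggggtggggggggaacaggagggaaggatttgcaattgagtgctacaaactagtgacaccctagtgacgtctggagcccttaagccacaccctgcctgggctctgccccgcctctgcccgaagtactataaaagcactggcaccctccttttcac
Sp100 (chr1:85649818-85649987, plus strand): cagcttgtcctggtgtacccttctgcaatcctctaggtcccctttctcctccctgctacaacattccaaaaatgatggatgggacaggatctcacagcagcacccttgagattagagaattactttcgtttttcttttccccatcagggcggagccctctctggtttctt

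Ifit1 and Ifit3 each held 2 matches on the strand opposite to the gene, and Isg15 held 3 overlapping matches in its single run of capitals. Of the 38 members 31 were in the RefSeq promoter table, and 16 of them (51.6%) had a match in at least 1 window from 250 bases before to 50 after the start. The same letters were found for 1079 of all 27025 genes of the table (3.99%) and for 301 of 7036 genes measured in the pooled cells (4.28%). A match is a description of the letters in this window. The 4 IFIT genes lie beside each other on chromosome 19 of mm10, from Ifit2 (chr19:34550694-34576419) to Ifit1 (chr19:34640871-34650009), and the 38 members are spread over 16 chromosomes.

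The CP library held 51652425 UMIs in 13507 barcodes and CP+EVs 38532775 in 8845, with medians of 1417 and 2884 UMIs per barcode. After filters 13409 and 8799 cells remained, of which 54.2% and 71.0% were assigned to a class by marker UMIs. The cells without a class were shallow, with median depths of 796 and 929 UMIs. The libraries shared 118 barcodes, 0.874% of those in CP and 1.33% of those in CP+EVs. They differed in the cells captured, with 2455 neutrophils in CP and 32 in CP+EVs, and 6 acinar cells in CP and 2701 in CP+EVs. Cells clustered without any interferon gene mostly separated by library. Clusters with B cell markers were number 6 for CP cells and numbers 20 and 25 for CP+EVs cells, those of macrophages or monocytes were 0 and 5 against 24 and 17, and those of fibroblasts were 10 and 2 against 15. The clusters with neutrophil markers held both libraries in unlike shares, cluster 8 with 2507 CP and 15 CP+EVs cells and cluster 13 with 145 and 8. Free RNA was read from the markers of unrelated classes, whose median level in a class was between 14.1% and 47.2% of the library level over the 10 CP classes and between 11.9% and 33.3% over the 13 CP+EVs classes ranked below.

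In CP the members were most abundant in B cells, and in CP+EVs the B cells were among the lowest classes. The summed level of the 38 members, as UMIs per 1000000 UMIs of the class (CPM), was 5143 in CP B cells (5009 to 5280). Mesothelial cells, the lining of the organ surface, followed at 4682, neutrophils at 4134 and macrophages or monocytes at 3885. Fibroblasts stood at 3379, T cells at 3257, dendritic cells at 3080 and NK cells at 2664. ILC2, the type 2 innate lymphoid cells, at 1603 and antibody-secreting plasma cells at 1416 were the lowest, and their intervals overlapped (1404 to 1823 and 1351 to 1483). The intervals of T cells (3181 to 3334) and dendritic cells (2970 to 3192) also overlapped, and those of no other neighbours in this order did. The first place of B cells depended on which members were counted. Without the 5 members with most UMIs (Sp100, Ifi27l2a, Slfn5, Lgals3bp and Trim30a) mesothelial cells led. Without the 31 B cells richest in member UMIs, described below, B cells stood at 3384 CPM. Member UMIs chose these cells, so a lower level without them follows by construction. Under the same limit, in cells of at least 1000 UMIs, mesothelial cells stood at 4699 CPM and macrophages or monocytes at 3586. Fibroblasts then stood at 3256, neutrophils at 3242 and T cells at 3111 CPM.

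In CP+EVs the 32 neutrophils led with 7334 CPM (6641 to 8079), before endothelial cells at 5783 (5568 to 6004) and mesothelial cells at 5137 (4992 to 5286). Fibroblasts stood at 3159, T cells at 3045, NK cells at 2792, macrophages or monocytes at 2729 and dendritic cells at 2551, and from fibroblasts to dendritic cells each interval overlapped the next. ILC2 at 2059 and B cells at 2030 also overlapped. Ductal cells stood at 1578, plasma cells at 1081 and acinar cells at 876 (857 to 896). As shares of the UMIs of the class, plasma cells were thus low in both libraries and mesothelial cells high in both. The median plasma cell of CP held 13681.5 UMIs and the median B cell 2251. The order was not read with immunoglobulin or acinar genes left out of the totals, so their part in it was not tested. In the pooled kept cells the sum was 3542 CPM in CP and 2344 in CP+EVs, and 16 of 36 members that passed a filter (a mean of at least 10 CPM and at least 20 UMIs in all) were at least 1.5-fold lower and 0 were higher. Over all 8818 genes that passed, 20.5% were lower and 9.53% higher by that fold. That pooled value mixes classes that the libraries hold in unequal shares. Among cells without a class 13 of 36 members were lower and 0 higher, where 17.6% of all genes were lower and 10.8% higher.

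**Figure D1:**
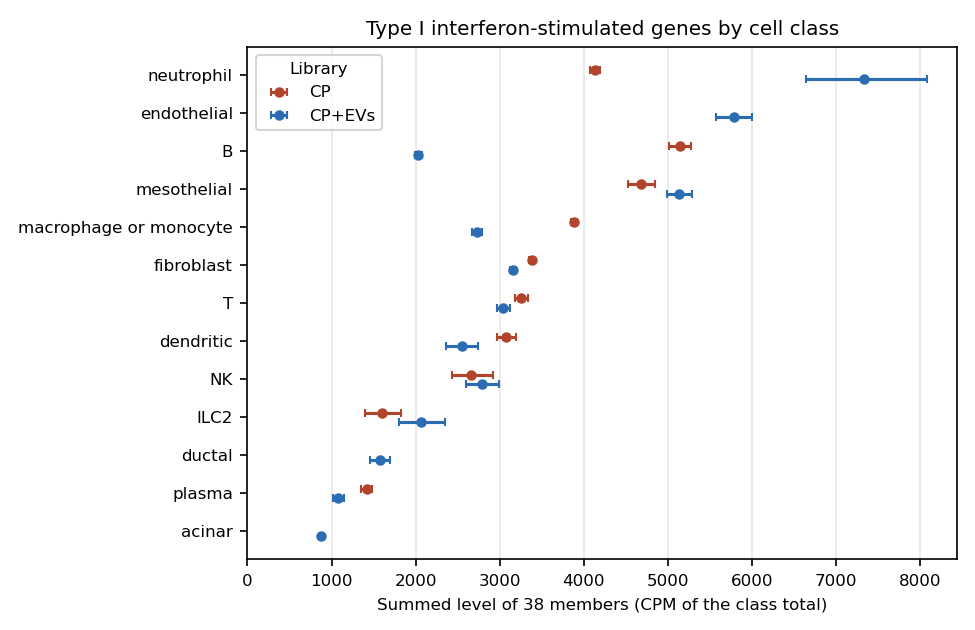
Summed level of the 38 members per cell class (horizontal axis, CPM of the class total; vertical axis, cell class) in CP (red) and CP+EVs (blue); bars are exact Poisson 95% intervals, which cover counting error only, and many are narrower than the point. The B cells stand at 5143 CPM in CP and 2030 in CP+EVs, while T cells and fibroblasts lie close together in the 2 libraries.

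Single members did not all follow the sum. Among the 9 CP classes of at least 50 cells, 12 members were highest in mesothelial cells, 11 in B cells, 6 in neutrophils and 3 in macrophages or monocytes, with 2 each in dendritic cells, fibroblasts and plasma cells. Among the 10 such CP+EVs classes 16 members were highest in endothelial cells and 11 in mesothelial cells. Macrophages or monocytes, T cells and NK cells had 3 each, and B cells and plasma cells 1 each. The single member highest in CP+EVs B cells was Pml, the scaffold of nuclear bodies. The 2 members highest in CP plasma cells were Isg20, an RNA-degrading exonuclease, and Zbp1, a sensor of Z-form nucleic acids.

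B cells showed the largest difference among the 10 classes compared. Their summed level was 5143 CPM in CP (371 cells, 5541 member UMIs) and 2030 CPM in CP+EVs (781 cells, 9440 member UMIs), a log2 ratio of CP+EVs over CP of -1.34 (-1.39 to -1.29). Of the 38 members 37 passed the filter, 34 were at least 1.5-fold lower and 0 at least 1.5-fold higher, where 15.5% of all 8215 genes were lower and 14.4% higher. The intervals of 33 members lay below a ratio of 1, as did those of 21.2% of all genes. The median log2 ratio was -1.54 for the members and -0.02 for all genes. Oas1a, an activator of the RNA-cutting enzyme RNase L, did not pass, with 11 UMIs in CP and 20 in CP+EVs.

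The IFIT genes, whose products bind foreign RNA, and Rsad2 held the 4 lowest ratios in B cells. Ifit1 stood at 108 CPM in CP (116 UMIs) and 3.01 CPM in CP+EVs (14 UMIs), a log2 ratio of -5.12 (-6.08 to -4.36). Ifit3, an IFIT1 partner, went from 150 to 7.96 CPM (log2 ratio -4.23) and its close copy Ifit3b from 39.0 to 2.37 CPM (-4.00), and reads of this pair may be shared. Rsad2, the antiviral radical SAM enzyme viperin, stood at 76.1 and 3.01 CPM, a log2 ratio of -4.62 (-5.59 to -3.83). The 4 IFIT genes together stood at 384 CPM in CP and 21.3 in CP+EVs. All 4 were lower, as were both measured members of the group of antiviral enzymes, Rsad2 and the nucleotide kinase Cmpk2, at 125 and 12.7 CPM together.

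The other functional groups were lower in B cells by smaller folds. Isg15, the ubiquitin-like modifier, stood at 26.0 CPM in CP and 4.09 in CP+EVs (log2 ratio -2.66, -3.59 to -1.78). The 5 measured OAS and RNA-decay genes that passed were all lower, and the group stood at 292 and 73.7 CPM. All 5 nucleic acid sensors were lower, at 342 and 124 CPM together, and all 4 genes of the Schlafen, SAMD9L and TRIM30 group, at 1400 and 489 CPM. Of the latter Slfn5, a nuclear Schlafen protein, had the lowest ratio, with 396 CPM in CP and 49.7 in CP+EVs (log2 ratio -2.99).

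The transcription and nuclear body group moved least in B cells, from 1430 to 802 CPM, with 4 of 5 lower. Stat2, a subunit of ISGF3, stood at 189 and 63.2 CPM (log2 ratio -1.58, -1.85 to -1.32), and Irf7, the factor that amplifies interferon production, at 28.8 and 11.6 CPM (-1.32, -1.97 to -0.62). Bst2, the membrane tether tetherin, stood at 60.3 and 32.0 CPM (-0.92, -1.34 to -0.47). The highest ratios were those of Ifi35 (-0.13, -0.68 to 0.50), the ISG15 ligase Herc6 (-0.33, -0.75 to 0.13), Phf11d (-0.56, -1.46 to 0.50) and the nuclear body protein Sp100 (-0.65, -0.75 to -0.55). The intervals of the first 3 of these included 0.

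**Figure D2:**
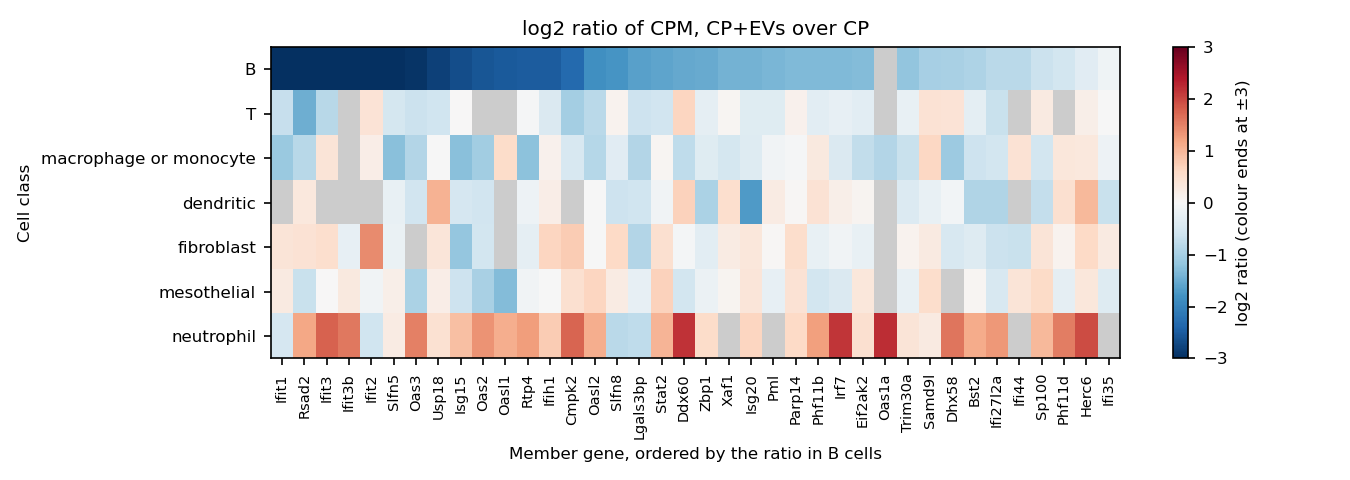
Log2 ratio of CPM, CP+EVs over CP (colour), for the members (horizontal axis, ordered by the ratio in B cells) in 7 cell classes (vertical axis); grey marks members that did not pass the filter on low values, and colours end at 3 in either direction. The B cell row is blue for all 37 members that passed, from Ifit1 (-5.12) to Ifi35 (-0.13), and the neutrophil row, from 32 CP+EVs cells, is mostly red.

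A small number of cells held much of the B cell signal in CP. Each cell was thinned to 1000 UMIs, which kept 332 of 371 CP and 762 of 781 CP+EVs B cells. The 10% of CP B cells with most member UMIs held 45.5% of them, where equal cells under Poisson counting would give 18.1%, and the variance over cells was 10.6 times the mean. In CP+EVs B cells those shares were 33.8% and 22.1%, and the variance was 2.82 times the mean. The median cell had 3 member UMIs per 1000 in CP and 2 in CP+EVs, so the typical B cells of the libraries lay nearer to each other than the sums.

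B cells with at least 15 member UMIs per 1000 are called strong cells here, a limit set after the data were seen that marks a range and no cell type. There were 31 strong cells of 332 in CP (9.34%, 6.43 to 12.99), and 11 cells lay close to the limit, between 12 and 17. In CP+EVs there were 7 of 762 (0.919%, 0.370 to 1.88). At limits of 10 and 20 the CP counts were 44 and 21, and those in CP+EVs 20 and 2. The strong CP B cells held 44.1% of the thinned member UMIs. Since member UMIs chose them, their member level of 26740 CPM against 3384 in the other CP B cells is a description.

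Several lists and genes not used in that choice stood higher in the strong B cells, and some stood lower. The list of 42 other interferon-stimulated genes stood at 24524 CPM in strong and 8212 in other CP B cells, and the 20 genes more specific to interferon gamma at 4058 and 1379 CPM. Irf9 stood at 672 and 257 CPM and Daxx, a nuclear body protein, at 411 and 72.4 CPM. The lymphocyte activation marker Cd69, which interferon raises, stood at 672 and 209 CPM. The cell cycle gene Mki67 stood at 12.4 CPM (1 UMI) in strong and 307 CPM in other cells. Ifnar1 (37.3 and 78.6 CPM), Ciita (187 and 294 CPM) and Irf8 (174 and 264 CPM) were also lower in the strong cells, each with an interval of the ratio that included 1. The 10 genes of handling and stress stood at 3087 and 2591 CPM. The median depth was 2317 UMIs in strong and 2460 in other cells, and the 11 B cell markers stood at 9088 and 7992 CPM. Neutrophil markers stood at 1170 and 1261 CPM, macrophage or monocyte markers at 909 and 913 CPM, T cell markers at 87.1 and 69.3 CPM and plasma cell markers at 436 and 394 CPM. The median strong cell was thus no deeper than the median of the others. The part of these markers in the result was not tested.

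The concentration in strong cells differed by member. Of the 32 members with at least 30 UMIs in CP B cells, the share of UMIs held by the 31 strong cells ran from 16.6% for Ifi27l2a, a mitochondrial membrane protein, to 92.9% for Ifit3b, with a median of 41.7%. It was over 50% for 10 members and over 80% for 4, the IFIT genes. Ifit1 had 98 UMIs in the 31 strong cells and 17 in the other 301, and 58.1% of strong but 1.99% of other cells had a UMI of it. Sp100 had 195 UMIs in strong and 826 in other cells, with a UMI in 96.8% and 83.7% of them. The genes that differed most between the libraries were thus those held by few cells, and Sp100 was detected in most B cells.

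Without the strong cells of either library the B cell sum stood at 3384 CPM in CP and 1966 in CP+EVs, a log2 ratio of -0.78 (-0.84 to -0.73), where all B cells of that depth gave -1.35. Of 33 members that passed, 27 were at least 1.5-fold lower and 0 higher, where 15.3% of all genes were lower. Ifit1 stood at 17.6 CPM (17 UMIs) and 2.60 CPM (12 UMIs), Rsad2 at 29.0 and 2.82, Stat2 at 126 and 62.9 and Sp100 at 854 and 606. Strong cells were chosen by their member UMIs and were a larger share of the CP cells, so a smaller difference without them follows by construction. The direction stayed the same.

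**Figure D3:**
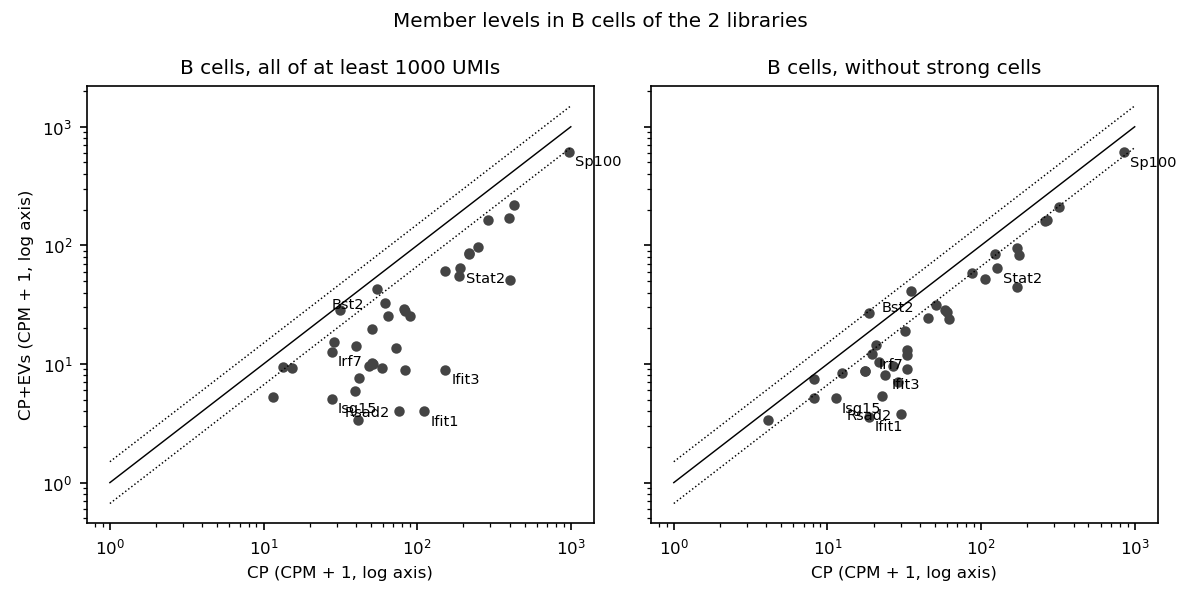
Level of each member in B cells of CP (horizontal axis) and CP+EVs (vertical axis), as CPM + 1 on log axes; the left panel has all B cells of at least 1000 UMIs, the right panel those with under 15 member UMIs per 1000. The solid line marks equal levels and the dotted lines 1.5-fold. Ifit1 moves from 110 CPM in CP on the left to 17.6 on the right, and 27 of 33 members that passed the filter remain at least 1.5-fold lower in CP+EVs.

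The B cells of the libraries also differed in the share with cell cycle UMIs. Of CP B cells 15.1% had a UMI of the cell cycle genes Mki67 or Top2a, and of CP+EVs B cells 39.9%. These shares were not matched for depth, and the median B cell held 2251 UMIs in CP and 3863 in CP+EVs. A deeper cell shows such a UMI more often, so the part of depth in this difference was not tested. Cells with such a UMI stood at 4235 CPM in CP and 1420 in CP+EVs, and cells without at 5486 and 3141 CPM, a log2 ratio of -0.80. Among cells with a UMI of Ighd, the IgD heavy chain of naive B cells, the sum stood at 6109 and 2464 CPM, and among cells without at 2557 and 1320 CPM. The sum was thus lower in CP+EVs within each of these kinds of B cell, and by less among cells without a cell cycle UMI. None of these splits was matched for depth. Unrelated markers stood at a median of 16.03% of their library level in CP B cells and 11.9% in CP+EVs B cells. With the free RNA read from the lowest such set subtracted, the log2 ratio was -1.35.

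Neutrophils, short-lived phagocytes, gave the only member sum with a log2 ratio above 0.5 in CP+EVs. The CP level was 4134 CPM (2455 cells, 20910 member UMIs). The CP+EVs level was 7334 CPM and rested on 32 cells with 410 member UMIs, of which the 3 richest cells held 27.3%. The log2 ratio was 0.83 (0.68 to 0.97), and that of the median gene, of 6489 that passed, was 0.31, so with scaling to that median it was 0.52. Of 34 members that passed, 24 were at least 1.5-fold higher and 3 lower, where 39.5% of all genes were higher and 22.8% lower. Many of these ratios rest on a few UMIs, and the intervals of 11 members lay above 1 and of 0 members below, against 6.97% and 4.84% of all genes.

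The members with most UMIs behind a higher ratio were Oasl2, an OAS-like protein, at 557 CPM in CP and 1181 in CP+EVs (66 UMIs; log2 ratio 1.09, 0.71 to 1.44) and Ifi27l2a at 257 and 626 CPM (35 UMIs; 1.31, 0.76 to 1.77). Rsad2 stood at 149 and 322 CPM (18 UMIs; 1.15, 0.35 to 1.78) and Ifit3 at 65.8 and 215 CPM (12 UMIs; 1.76, 0.74 to 2.53). The highest ratios by the naming rule were those of Oas1a (3 UMIs; 2.21, -0.32 to 3.61), the RNA helicase Ddx60 (21 UMIs; 2.16, 1.42 to 2.76), Irf7 (7 UMIs; 2.14, 0.71 to 3.13) and Herc6 (6 UMIs; 1.97, 0.39 to 3.01). Ifit1 stood at 113 CPM and 71.5 CPM (4 UMIs; -0.49, -2.54 to 0.70). Isg15 stood at 62.3 and 107 CPM (6 UMIs), Stat2 at 57.3 and 107 CPM (6 UMIs) and Bst2 at 28.7 and 53.7 CPM (3 UMIs), each with an interval that included a ratio of 1. At the low end Ifi35 and Xaf1, which did not pass the filter, had 101 and 89 UMIs in CP and 0 in CP+EVs. Slfn8 had 393 and 2 (-0.80, -4.17 to 0.74), and Lgals3bp, a secreted glycoprotein, had 229 and 1 (-0.76, -6.65 to 1.15). Neutrophils held 5057711 UMIs in CP and 55906 in CP+EVs, so these few UMIs cannot show a lower level.

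Neutrophils of CP held few strong cells with very many member UMIs. Of the 2029 with at least 1000 UMIs, 79 (3.89%, 3.09 to 4.83) were strong and held 27.2% of the thinned member UMIs. The top 10% of cells held 42.5%, against 19.3% under Poisson counting, the variance was 12.02 times the mean, and the richest cell had 132 member UMIs per 1000. The median cell had 3. The strong cells held 94.0% of Ifit2, 77.7% of Ifit3, 75.4% of Ifit1 and 64.0% of Rsad2 UMIs, but 18.2% of Oasl2, 14.0% of Sp100 and 3.98% of Lgals3bp UMIs. Among genes not used in the choice, Cxcl10, an interferon-induced chemokine, stood at 556 CPM in strong and 29.8 in other neutrophils, and Epsti1 at 376 and 91.3 CPM. The 42 other interferon-stimulated genes stood at 14888 and 5149 CPM, and the median depth was 2097 and 2044 UMIs. Neutrophil markers were lower in the strong cells, at 33185 CPM against 55702 in the others (medians over cells 26658 and 36056). Macrophage or monocyte markers stood at 1800 and 1906 CPM. The part of these markers in the result was not tested. Among the 32 CP+EVs neutrophils 31 had a member UMI, the median cell had 5.62 member UMIs per 1000 of its own total, the highest 37.3, and 3 cells had at least 15.

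**Figure D4:**
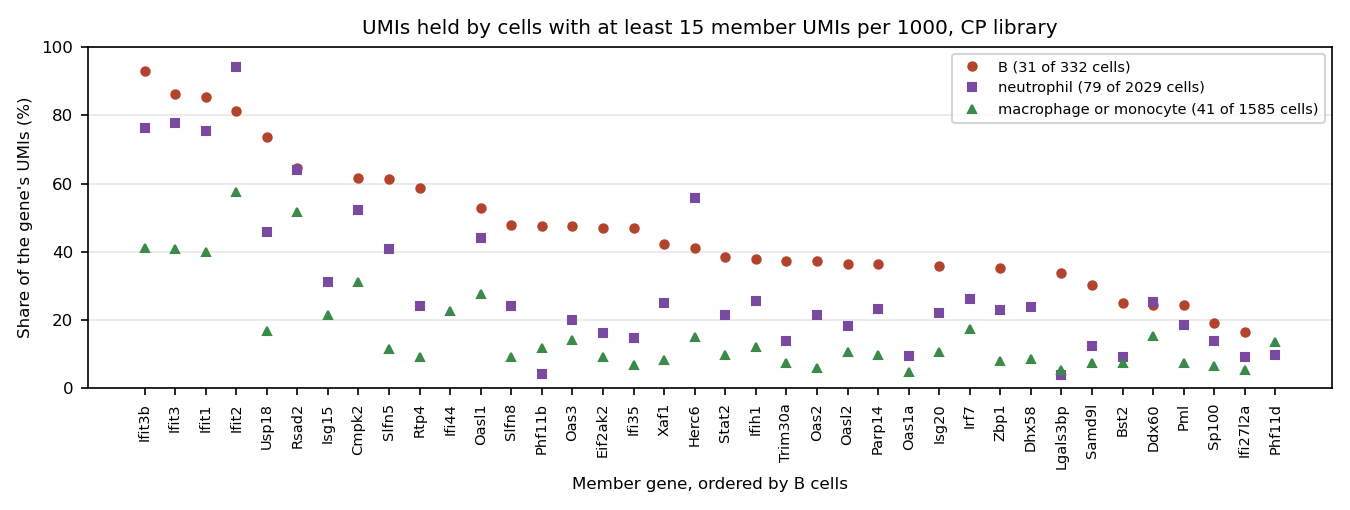
Share of each member's UMIs (vertical axis, percent) that lies in cells with at least 15 member UMIs per 1000 in CP; members on the horizontal axis are ordered by B cells, and a point needs at least 30 UMIs. The IFIT genes stand at 81.4% to 92.9% in B cells (red circles, 31 of 332 cells) and at 75.4% to 94.0% in neutrophils (purple squares, 79 of 2029 cells), while Sp100 and Ifi27l2a stand under 20% in both.

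Macrophages and monocytes carried less of the sum in CP+EVs, and more of their members were lower than higher. The sum stood at 3885 CPM in CP (1764 cells) and 2729 in CP+EVs (415 cells), a log2 ratio of -0.51 (-0.54 to -0.48). Of 37 members that passed, 15 were at least 1.5-fold lower and 1 higher, where 22.6% of all genes were lower and 10.4% higher. The intervals of 22 members lay below a ratio of 1 and of 6 above, against 45.7% and 18.9% of all genes. The median over all 7680 genes was -0.22, and scaled to it the ratio of the sum was -0.29, with 11 members lower and 4 higher. With the mean of per-cell values 7 were lower and 4 higher. The shares of all genes were not counted under these settings. Cells with at least 3 UMIs of the complement genes C1qa, C1qb and C1qc, which mark tissue macrophages, gave -0.33 and the others -0.83.

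The lowest ratios in this class were those of Isg15, at 32.0 and 13.2 CPM (-1.26, -1.75 to -0.83), Slfn5 at 450 and 190 CPM (-1.25), Rtp4, a receptor-transporting protein, at 105 and 45.1 CPM (-1.22) and Ifit1 at 30.2 and 13.8 CPM (-1.12). Rsad2 stood at 35.4 and 19.8 CPM (-0.83) and Bst2 at 154 and 100 CPM (-0.62). Irf7 stood at 27.1 and 20.1 CPM (-0.42, -0.82 to -0.06). Stat2 was nearly level at 76.2 and 79.0 CPM (0.05, -0.15 to 0.25). The highest ratios were those of Samd9l, a translation inhibitor, at 100.2 and 154 CPM (0.62, 0.48 to 0.77), Oasl1 (0.55, 0.10 to 0.97), Ifi44 (0.43, -0.07 to 0.89) and Ifit3, at 20.4 and 26.7 CPM (0.40, 0.03 to 0.74). Ifit1 and Ifit3, both of the IFIT group on chromosome 19, thus had ratios of opposite sign here. The 10 genes of handling and stress stood at 5879 CPM in CP and 9106 in CP+EVs in this class, and their part in the result was not tested.

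Strong cells were 41 of 1585 macrophages and monocytes in CP (2.59%, 1.86 to 3.49) and 6 of 403 in CP+EVs (1.49%, 0.548 to 3.21). The top 10% of cells held 32.6% and 34.1% of the member UMIs, against 19.6% and 20.7% under Poisson counting. Without strong cells the log2 ratio of the sum was -0.49, with 15 of 36 members lower and 4 higher, where 22.9% of all genes were lower.

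In T and NK cells the sum differed little between the libraries. In T cells it stood at 3257 CPM in CP (554 cells) and 3045 in CP+EVs (474 cells), a log2 ratio of -0.10 (-0.15 to -0.05). Of 32 members that passed, 9 were at least 1.5-fold lower and 1 higher, where 8.4% of all genes were lower and 5.81% higher. The intervals of 13 members lay below a ratio of 1 and of 3 above, against 13.3% and 10.3% of all genes. The lower ones included Rsad2 at 28.0 and 9.92 CPM (-1.47, -2.33 to -0.73), Cmpk2 at 30.8 and 15.1 CPM (-1.01), Ifit3 at 25.2 and 14.1 CPM (-0.83), Oasl2 at 49.5 and 28.2 CPM (-0.81) and Ifit1 at 50.9 and 31.3 CPM (-0.70). The single higher member was Ddx60, at 42.1 and 65.8 CPM (0.64, 0.24 to 1.05). Samd9l stood at 180 and 241 CPM (0.42), Ifit2 at 29.4 and 39.1 CPM (0.41, -0.09 to 0.92) and Dhx58, an RNA helicase, at 9.81 and 13.05 CPM (0.41, -0.49 to 1.32). Isg15 was level at 18.2 and 18.3 CPM, Irf7 stood at 22.4 and 18.8 CPM, Bst2 at 96.3 and 78.3 CPM and Stat2 at 87.4 and 58.5 CPM (-0.58). There were 6 strong T cells of 523 in CP and 0 of 458 in CP+EVs, which allows a share of up to 0.802% in the latter by the exact binomial interval. Without them 5 members were lower and 1 higher, where 8.48% of all genes were lower.

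In NK cells the sum stood at 2664 CPM in CP (59 cells) and 2792 in CP+EVs (86 cells), a log2 ratio of 0.07 (-0.10 to 0.24). It was -0.14 without the 1 strong cell, which lay in CP+EVs. Few members could be compared, since 12 passed the filter, with 1 lower and 2 higher, where 15.6% of all genes were lower and 13.3% higher. Slfn8, a Schlafen protein, stood at 51.3 and 149 CPM (1.48, 0.48 to 2.76), and Sp100 at 821 and 995 CPM (0.27, -0.02 to 0.58). Samd9l (0.22), Phf11b (0.14), Parp14 (0.01), Lgals3bp (-0.33), Trim30a (-0.43) and Zbp1 (-0.44) all had intervals that included 0. Ifit1 had 3 and 14 UMIs, Ifit3 0 and 2, Rsad2 1 and 2, Isg15 4 and 2, Irf7 3 and 3, Bst2 8 and 9 and Stat2 12 and 13.

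Dendritic cells, which present antigen to T cells, stood at 3080 CPM in CP (107 cells) and 2551 in CP+EVs (37 cells), a log2 ratio of -0.27 (-0.39 to -0.15). Of 30 members that passed, 8 were at least 1.5-fold lower and 3 higher, where 26.3% of all genes were lower and 13% higher, so the members' shares lay near those of all genes. The median over all 6698 genes was -0.18, and scaled to it the ratio was -0.09, with 4 members lower and 6 higher. With that scaling the shares of all genes were not counted, so these 2 counts stand without a comparison. Without the 5 members with most UMIs (Sp100, Ifi27l2a, Slfn5, Lgals3bp and Trim30a) it was -0.00154. Bst2 stood at 126 and 65.5 CPM (-0.91, -1.74 to -0.22) and Ifi27l2a at 221 and 116 CPM (-0.90, -1.51 to -0.38), and Herc6 at 29.9 and 58.2 CPM (0.98, -0.02 to 1.89). The lowest ratios were those of Isg20 at 28.9 and 7.28 CPM (-1.69, from 2 UMIs in CP+EVs) and Zbp1 at 45.4 and 21.8 CPM (-0.96, -2.58 to 0.18). Xaf1 (0.51), Phf11b (0.44, 0.07 to 0.78) and Pml (0.23) were at the high end. Stat2 was near level at 83.5 and 76.4 CPM, and Irf7 stood at 23.7 and 25.5 CPM. Ifit1 had 12 UMIs in CP and 0 in CP+EVs, Ifit3 8 and 5, Rsad2 18 and 6 and Isg15 17 and 3. Genes of handling and stress stood at 4000 and 8184 CPM, and their part in the result was not tested. The 11 plasmacytoid dendritic cells of CP, a class known for making interferon alpha, stood at 3980 CPM (3527 to 4474).

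Fibroblasts, the matrix-producing cells, were close to level in the sum. The sum stood at 3379 CPM in CP (1636 cells) and 3159 in CP+EVs (1334 cells), a log2 ratio of -0.10 (-0.12 to -0.08). That sign was not stable. Without the 5 members with most UMIs the ratio was 0.13, and with free RNA subtracted it was -0.03 at the lowest unrelated marker set and 0.60 at the median set, which reached 47.2% of the level over the whole library in CP and 24.1% in CP+EVs. Of 35 members that passed, 4 were at least 1.5-fold lower and 5 higher. Of all genes 13% were lower and 12.7% higher, so the members' shares lay near those of all genes. Scaled to the median gene 5 members were lower and 3 higher, and the shares of all genes were not counted there. Genes of handling and stress stood at 13842 CPM in CP and 22559 in CP+EVs, and their part in the result was not tested.

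The lower fibroblast members were Isg15 at 33.1 and 14.8 CPM (-1.16, -1.44 to -0.89), Lgals3bp at 530 and 288 CPM (-0.88), Ifi44 at 34.4 and 21.7 CPM (-0.66) and Ifi27l2a at 413 and 264 CPM (-0.64). The highest ratios were those of Ifit2 at 24.1 and 64.4 CPM (1.42, 1.23 to 1.61), Cmpk2 at 24.8 and 42.2 CPM (0.77), the RNA sensor Ifih1 (MDA5) at 74.2 and 115 CPM (0.63) and Herc6 at 27.3 and 41.5 CPM (0.60). Slfn8 was the remaining member above 1.5-fold. Ifit1 stood at 87.6 and 114 CPM (0.39), Ifit3 at 51.6 and 72.6 CPM (0.49), Stat2 at 79.6 and 111 CPM (0.49) and Rsad2 at 16.8 and 22.9 CPM (0.44). Irf7 (-0.10, -0.33 to 0.12) was near level, and Bst2 stood at 185 and 143 CPM (-0.38). The 4 IFIT genes together stood at 177 CPM in CP and 263 in CP+EVs, and the 4 membrane and secreted members at 1184 and 742 CPM. Without the 9 CP and 14 CP+EVs strong cells 6 members were lower and 2 higher, where 12.8% of all genes were lower.

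Mesothelial cells had high member levels in both libraries, 4682 CPM in CP (76 cells) and 5137 in CP+EVs (99 cells; log2 ratio 0.13, 0.07 to 0.20). Of 36 members that passed, 5 were lower and 2 higher by 1.5-fold, where 17% of all genes were lower and 14.9% higher. Oasl2 stood at 602 and 943 CPM (0.65, 0.48 to 0.82) and Stat2 at 107 and 174 CPM (0.70, 0.30 to 1.12). Sp100 (0.58, 0.33 to 0.83) and Samd9l (0.53, 0.18 to 0.90) were the next highest. Oasl1 (-1.31, -2.43 to -0.31) and Oas2 (-0.97, -1.87 to -0.11), of the same family as Oasl2, were lower. Rsad2 stood at 47.2 and 29.4 CPM (-0.68, -1.47 to 0.10), Isg15 at 48.6 and 31.6 CPM (-0.62, -1.39 to 0.14) and Irf7 at 58.6 and 43.6 CPM (-0.43, -1.09 to 0.24), each with an interval that included 0. Ifit1 stood at 152 and 183 CPM, Ifit3 at 217 and 220 CPM and Bst2 at 246 and 256 CPM. All 63 thinned CP mesothelial cells had a member UMI, the top 10% held 19.6% of the UMIs against 18.9% under Poisson counting, and 0 were strong. In the 94 of CP+EVs the top 10% held 24.1% against 18.3%, the variance was 2.43 times the mean, and 1 cell was strong.

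Endothelial cells, which line blood vessels, could be described in CP+EVs alone, since 4 cells were gated in CP. Their sum of 5783 CPM was 247% of the level over all kept CP+EVs cells, while unrelated markers stood at a median of 21.3% of theirs. Slfn5 stood at 1417 CPM (1312 to 1528), 711% of its library level, Ifi44 at 302 CPM (1415%), Rsad2 at 262 CPM (1520%), Bst2 at 355 CPM (356%) and Ifit1 at 141 CPM (284%). Ifit3 stood at 150 CPM (379%), Stat2 at 133 CPM (174%), Irf7 at 46.4 CPM (238%) and Isg15 at 27.4 CPM (245%). Ifi27l2a at 44.3 CPM (21.7%) and Zbp1 at 12.7 CPM were below their library level. All 87 cells with at least 1000 UMIs had a member UMI, with a median of 5 per 1000, and the top 10% held 26.2% of the UMIs. After thinning Slfn5 had a UMI in 66.7% of endothelial and 3.51% of acinar cells, and Rsad2 in 25.3% and 0.570%. Unthinned these shares were 81.6% and 9.96% for Slfn5 and 45.6% and 1.81% for Rsad2, at median depths of 2845 and 2708 UMIs. In CP+EVs fibroblasts Slfn5 had a UMI in 30.1% of thinned and 74.9% of unthinned cells, at a median depth of 6643 UMIs. Rsad2 had one in 1.49% and 6.75% of them.

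Acinar cells, which secrete digestive enzymes, had the lowest member level of the 13 CP+EVs classes. Their 876 CPM was 37.4% of the library level, and unrelated markers stood at 26.6% to 52.4% of theirs in these cells (median 33.3%), so the summed member level lay within the range of free RNA. A member UMI was found in 54.0% of 2280 thinned acinar cells (81.9% unthinned). The members ranged from 18.9% of the library level for Xaf1 to 67.4% for Isg20. Isg20 and Pml (63.2%) lay above the range of the unrelated markers. Oas2 (59.3%), Ifi27l2a (53.1%) and Ifi35 (52.9%) also did, but their counting intervals reached into that range. Ductal cells stood at 1578 CPM (67 cells), 67.3% of the library level, with unrelated markers at a median of 17.3%.

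Plasma cells and ILC2 had few member UMIs to compare. In plasma cells the log2 ratio of the sum was -0.39 (-0.50 to -0.28), and of 20 members that passed 7 were lower and 0 higher, where 27.7% of all genes were lower and 6.79% higher. The lowest ratios were those of Rtp4 (-2.01, -3.86 to -0.71), Slfn5 (-1.45, -2.47 to -0.59), Zbp1 at 131 and 59.7 CPM (-1.12, -1.57 to -0.71) and Oasl2 (-0.78, -1.65 to 0.01). The highest were those of Phf11b (0.55), Parp14 (0.41), Eif2ak2 (0.10) and Samd9l (0.05), all with intervals that included 0. Stat2 stood at 33.9 and 30.7 CPM and Bst2 at 206 and 196 CPM (-0.07, -0.33 to 0.20). Ifit1 had 17 UMIs in CP and 3 in CP+EVs, Ifit3 11 and 6, Isg15 13 and 5, Irf7 4 and 8 and Rsad2 8 and 3. In ILC2, from 35 and 34 cells, the log2 ratio was 0.36 (0.09 to 0.63), and of 6 members that passed 1 was lower and 4 higher, where 21.7% of all genes were lower and 19.7% higher.

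**Figure D5:**
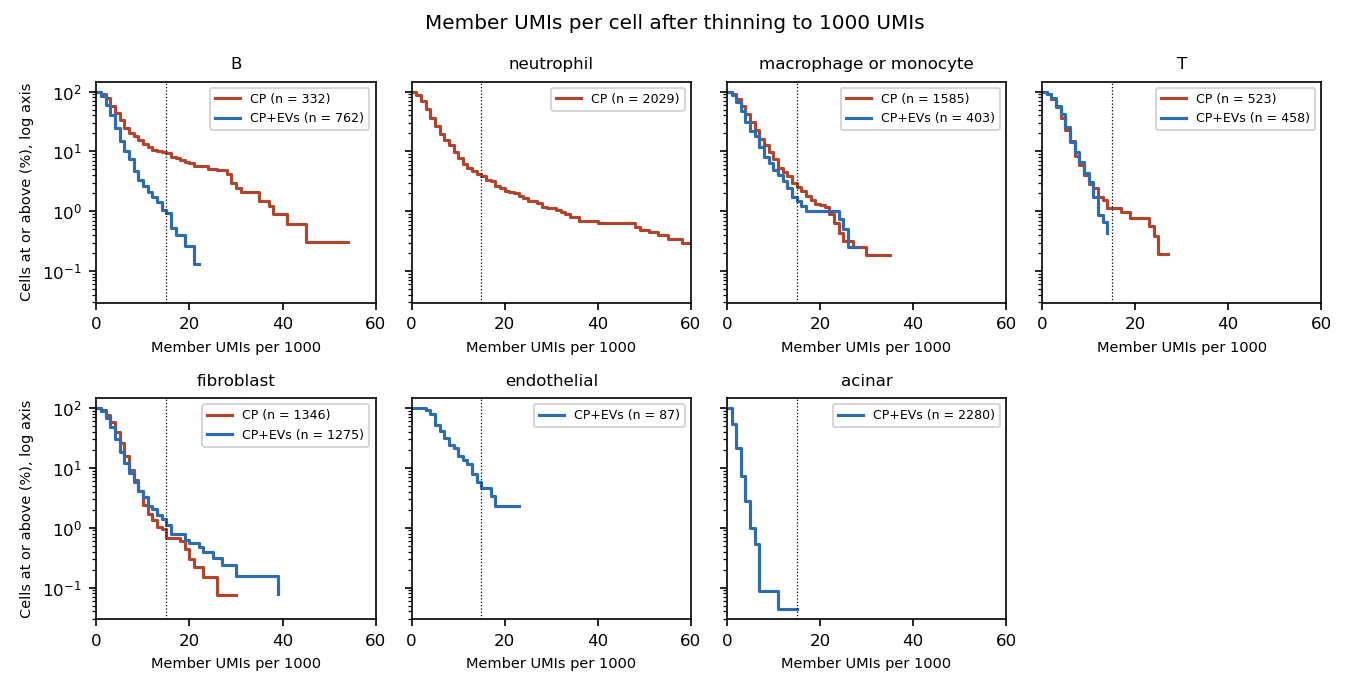
Share of cells (vertical axis, percent, log axis) with at least a given number of member UMIs after thinning to 1000 UMIs (horizontal axis, shown up to 60) in 7 classes of CP (red) and CP+EVs (blue); n is the number of cells and the dotted line marks 15. The CP B cells and neutrophils have long tails, with 9.34% and 3.89% of cells at or above 15, and CP+EVs B cells have 0.919%. Fewer than 50 CP+EVs neutrophils were left, so they are not drawn.

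The member level was also set against that of the other interferon-stimulated genes across cells of a class. Spearman's rho over thinned cells ranged from 0.04 in CP+EVs NK cells to 0.47 in CP B cells over 19 classes and libraries, and it was 0.05 in CP NK cells and 0.06 in CP+EVs plasma cells. It was 0.44 in CP macrophages or monocytes, 0.34 in CP neutrophils, 0.29 in CP fibroblasts and 0.17 in CP T cells. For the handling and stress list it lay between -0.12 and -0.01 in CP B cells, macrophages or monocytes, neutrophils, fibroblasts and T cells. Over all 19 classes and libraries it ranged there from -0.26 in CP+EVs NK cells to 0.16 in CP NK cells. With cell depth rho ranged from -0.30 in CP+EVs B cells to 0.17 in CP+EVs mesothelial cells, and it was -0.11 in CP B cells. The part of depth in the B cell ratio was not tested. The points of each rho are the cells of 1 class in 1 library and share its free RNA, and these values are descriptions.

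The rest of the pathway was read from lists that were not used to choose the members. Of 18 interferon ligand genes with a row, 0 passed the filter in any class. Ifnab had 6 UMIs in CP, 3 of them in neutrophils, and 2 in CP+EVs. Ifnz had 2 and Ifne 1 UMI in CP, and Ifnk 3 UMIs in CP+EVs. The other 14, the beta interferon Ifnb1 among them, had 0 UMIs in the kept cells of either library, so their RNA was not detectable at this depth.

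Of the 12 receptor, kinase and transcription factor genes all 12 passed in B cells, with 5 lower and 1 higher by 1.5-fold (15.5% and 14.4% of all genes). Irf9, the DNA-binding subunit of ISGF3, stood at 284 CPM in CP and 158 in CP+EVs (log2 ratio -0.85). The higher gene was Irf8, a factor of B and myeloid cells, at 255 and 448 CPM (0.81). In macrophages and monocytes 3 of 11 were lower and 2 higher (22.6% and 10.4% of all genes), with the receptor genes Ifnar1 at 152 and 66.1 CPM (-1.20) and Ifnar2 at 121 and 47.7 CPM (-1.34), and with Irf1, a factor that interferon gamma induces, at 266 and 515 CPM (0.95). In fibroblasts 1 of 11 was lower and 3 higher (13% and 12.7% of all genes), again with Irf1 (1.53) and Ifnar2 (-1.05) at the ends.

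The list of sensing and signalling genes upstream of interferon had 6 of 9 lower and 0 higher in B cells. It had 5 of 9 lower and 0 higher in macrophages or monocytes and 2 of 9 lower in fibroblasts. Of all genes 15.5%, 22.6% and 13% were lower in these classes. In neutrophils 5 of 7 genes of this list were lower and 1 higher, where 22.8% of all genes were lower and 39.5% higher. The sum of these genes stood there at 814 CPM in CP and 376 in CP+EVs (log2 ratio -1.12, -1.81 to -0.50). The 5 nucleic acid sensors among the members went the other way in neutrophils, at 253 and 608 CPM (1.26, 0.73 to 1.75). In B cells Ddx58 (RIG-I), itself interferon-inducible, stood at 168 and 55.9 CPM (-1.59) and Tlr3 at 15.8 and 5.16 CPM (-1.62). The list of other interferon-stimulated genes had 23 of 34 lower and 0 higher in B cells, with Ifi47 (-2.25), Ifi208 (-2.15) and Ifi213 (-1.77) lowest. In macrophages or monocytes 8 of 35 were lower and 5 higher, in fibroblasts 4 and 8 of 35, and in neutrophils 9 and 13 of 33. Unlike the member sum, the sum of this list was level in neutrophils, at 5517 CPM in CP and 5509 in CP+EVs (log2 ratio -0.00211, -0.17 to 0.16). The shares of all genes were 22.6% and 10.4% in macrophages or monocytes, 13% and 12.7% in fibroblasts and 22.8% and 39.5% in neutrophils, so the macrophage and the higher neutrophil counts lay near those of all genes.

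Genes more specific to interferon gamma differed in direction between classes. In B cells 9 of 14 were at least 1.5-fold lower and 0 higher, with Irgm1 (-1.85) and Irgm2 (-1.84), which belong to the immunity-related GTPases. In macrophages and monocytes 9 of 14 were higher and 2 lower, in fibroblasts 11 of 14 were higher and 0 lower, and in mesothelial cells 11 of 14 and 0. Of all genes 10.4%, 12.7% and 14.9% were higher in these 3 classes, and 15.5% lower in B cells. Cxcl9, a chemokine that interferon gamma induces, stood at 24.0 and 155 CPM in macrophages or monocytes (2.69) and at 30.8 and 208 CPM in fibroblasts (2.75).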

How the data were processed

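Pancreas cells of mice were read on BD Rhapsody, with 1 library for each treatment label. The matrices deposited by the authors give unnormalized UMI counts, as whole numbers per gene and barcode. The submitters' processing notes name CASAVA 1.8, UMI-tools, Seurat and mm10. No aligner, annotation or cell caller is stated in the labels. The shallowest barcode held 501 UMIs.

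A barcode needed 200 genes and no more than 25% mitochondrial UMIs. No doublet caller was run and doublets were not removed. A cell took a class when at least 3 of its markers exceeded the library's mean share (one-sided Poisson p under 0.05) and no other class had more than 50% as many. Acinar cells also needed 20% of UMIs from acinar markers. This gate was set after the data were seen, and a class name means that the barcode is like that type. Class sums of UMIs in each library were given as CPM with exact Poisson intervals. Fitted log2 ratios of single genes have 0.5 counts added. Ratio intervals are exact binomial intervals given the total of both libraries. Cells are no replicates, so nothing was tested.

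The members and lists were chosen with earlier results of these data known. Named genes are Ifit1, Ifit3, Isg15, Irf7, Rsad2, Bst2 and Stat2 in the classes described, the 4 highest and 4 lowest members per class with at least 30 UMIs, and up to 3 genes per list. In ILC2 and in classes read in 1 library not all of these are printed. Further members were named after their values were seen. Free RNA was read from unrelated marker sets with at least 200 CPM in the library. Gene positions come from GENCODE, for 31107 identifiers, and promoters from RefSeq. Ratios, intervals, thinning and spread were tested on simulated data. Alternatives covered filters, gate, clusters, scaling, per-cell means, members and thinning. Python 3.11.15, NumPy 2.4.6, SciPy 1.17.1 and scanpy 1.11.5 were used.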

Additional observations from a re-analysis of the deposited data

Results flagged for a closer look

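The log2 ratio of the summed member level, CP+EVs over CP, had opposite signs in cell classes under the same contrast. It was 0.83 in neutrophils, from 32 CP+EVs cells, and -1.34 in B cells and -0.51 in macrophages or monocytes. Dendritic cells gave -0.27, T cells -0.10 and fibroblasts -0.10. Of the other classes compared, ILC2 gave 0.36 (0.09 to 0.63) and mesothelial cells 0.13 (0.07 to 0.20). NK cells gave 0.07 (-0.10 to 0.24) and plasma cells -0.39 (-0.50 to -0.28). Each value comes from 1 library per group, so the difference between classes was not tested, and the sign in fibroblasts turned under other settings.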

How the results depend on the processing

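No paired analysis was possible because each group has 1 library. Over the alternatives run the log2 ratio of the summed members kept its sign in B cells (-1.59 to -0.78), T cells, dendritic cells, macrophages or monocytes and neutrophils, and turned in fibroblasts and NK cells. Classes taken from clusters gave no NK and no comparable dendritic class. The settings on strong cells, cell cycle, C1q and free RNA were chosen after seeing the data. Shares of all genes were counted for the main setting and, for lower genes, without strong cells. Member counts under other settings stand without such a share. Few cells or UMIs limit neutrophils (32 CP+EVs cells), ILC2 (34, with 6 members that passed), dendritic cells (37) and NK cells (12 members that passed).

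In B cells the log2 ratio was -1.44 with classes from clusters, -1.02 with the mean of per-cell CPM, -1.59 without the 5 members with most UMIs, -0.78 without strong cells and -0.80 in cells without a Mki67 or Top2a UMI. With a mean CPM of at least 50, 16 members were lower. In T cells it was -0.0324 without strong cells, with 5 members lower, and -0.00885 with free RNA subtracted at the lowest unrelated set, with 2 higher. At 500 genes per cell 0 were higher, with no filter 2 were higher, and at 50 CPM 2 were lower. In NK cells it was -0.14 without strong cells, and 0.30 and 0.42 with free RNA subtracted at the lowest and the median set.

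In dendritic cells the log2 ratio was -0.0877 with median-of-ratios scaling, with 4 members lower and 6 higher, and -0.00154 without the 5 members. With no filter 8 were higher, at 50 CPM 4 were lower and 0 higher, and 5 were higher with free RNA subtracted. In macrophages or monocytes it was -0.46 with clusters, -0.29 with median-of-ratios scaling (4 higher), -0.30 with per-cell means (7 lower, 4 higher), -0.29 without the 5 members, -0.47 with free RNA subtracted at either set (2 higher), -0.33 with at least 3 C1q UMIs (4 higher) and -0.83 with fewer. At 50 CPM 7 were lower, and without strong cells 4 were higher.

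In neutrophils it was 1.0004 with clusters, 0.52 with median-of-ratios scaling, 0.98 with per-cell means, and 0.9986 and 0.99 with free RNA subtracted, with 1 member lower. With no filter 5 were lower and at 50 CPM 1 was lower. In fibroblasts it was -0.12 with 1 more marker needed, -0.14 with median-of-ratios scaling (3 higher), -0.0757 with totals that leave out immunoglobulin, haemoglobin, mitochondrial, Reg and acinar genes, -0.18 with per-cell means (3 higher), -0.16 without strong cells (2 higher), -0.0278 with free RNA subtracted at the lowest set, and it turned to 0.60 at the median set and to 0.13 without the 5 members. The unequal weights of members and free RNA enter these by construction. With no filter 7 were lower, and at 50 CPM 2 were lower and 1 higher.

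Without the 5 members 6 of 10 CP and 5 of 13 CP+EVs classes kept their place in the order of levels, and with per-cell means 6 of 13 CP+EVs classes did. The share of member UMIs in the top 10% of cells, thinned to 2000 UMIs, was 49.1% in CP B cells, 25.8% in CP T cells, 31.4% in CP macrophages or monocytes, 40.7% in CP neutrophils, 24.6% in CP fibroblasts, 31.1% in CP+EVs B cells and 32.3% in CP+EVs acinar cells. Thinned to 750 UMIs it was 34.3% in CP+EVs fibroblasts and 39.0% in CP+EVs acinar cells. For the other moved values the cause was not tested.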
